A study of Mus musculus with 8 samples.

Results

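The 40 genes described here carry cells from G1 into S phase and copy the genome: replication licensing factors, helicase and polymerase subunits, enzymes of deoxynucleotide supply, chromatin assembly factors, and the cyclins and E2F factors of the G1/S transition. They were taken from a fixed list of symbols, matched to the gene name of each non-control probe, with Cdc45 allowed under its older name Cdc45l. All 40 had at least 1 probe, 52 probes in all: 31 genes had 1 probe, 6 had 2 and 3 had 3. Each gene is represented by its probe of highest mean signal over the 8 arrays. Of the 40, 37 passed the filter on dim signals and were tested among 14872 genes.

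Liver RNA of 12-week-old bl6 mice on chow was hybridised to 8 single-colour Agilent arrays, with RNA taken on day 6 after transduction. Both groups received an adenoviral pblockIT vector at a dose of 2e+09, for which no unit is given: 4 samples the control vector and 4 the vector with a short hairpin against Raly, an RNA-binding protein of the hnRNP family. No group without vector was among the samples analysed. The titles number the samples without stating that each is a separate mouse, and the p-values then cover the spread among arrays, which may be technical in part.

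Raly itself stood at 62.5% of the control level in the shRaly group (log2 fold change -0.68, SE 0.15, n = 4 and 4, limma adjusted p = 0.0748), with the least reduction on shRaly 2 (log2 -0.31 relative to the control mean) and values from -0.95 to -0.67 on the other shRaly arrays. All shRaly values lay below all controls, of which control 2 was the lowest at -0.25. An exact two-sided permutation test over the 8 arrays gave p = 0.0286, the smallest that 4 against 4 arrays allow. The limma adjusted p of Raly was 0.0111 with normexp background correction and 0.184 with no filter on dim probes. All 14 hepatocyte markers looked for were above the filter. Between 45.9% (shRaly 2) and 51.1% of spots per array were well above background. The control arrays lay in row 1 of the slide and the shRaly arrays in row 2, which leaves the row and the treatment inseparable; their parts cannot be told apart.

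In a cell preparing to divide, the origin recognition complex, Cdc6 and Cdt1 load the Mcm2 to Mcm7 helicase onto DNA in G1. Cyclin D and cyclin E kinases release E2F factors from the retinoblastoma family proteins, and the E2Fs switch on most of the replication genes together. Cdc45, the GINS complex and Mcm10 then turn the loaded helicase into a moving fork, which polymerases alpha, delta and epsilon copy behind. Adult hepatocytes are mostly quiescent and re-enter the cycle after injury or loss of tissue. Many hepatocytes are polyploid, having copied their DNA without completing division.

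Promoter sequences are shown first because letter motifs in them are shared by members of the group and were not used to choose it; the window ran from 250 bases before to 50 after the start site. RefSeq promoters (GRCm38.p6) were matched by symbol for 33 of the 40 genes. An E2F-type motif, TTTNGCGC on either strand, lay in the window of 11 of these 33 genes (33.3%), against 1.57% of the 27025 genes in the promoter table and 2.59% of the 11235 tested genes with a promoter there. The 11 were Cdt1, E2f2, Lig1, Mcm3, Mcm5, Mcm6, Mcm7, Orc1, Pola1, Rfc3 and Uhrf1. In Cdt1, E2f2, Lig1, Mcm3 and Mcm7 the match lay after the start site. The stretches before the start site are printed for the other 6, 5′ to 3′ on the gene's strand, with the motif in capitals; where matches on both strands overlap, the capitals cover both.
Mcm6, chr1:128359723-128359837, minus strand: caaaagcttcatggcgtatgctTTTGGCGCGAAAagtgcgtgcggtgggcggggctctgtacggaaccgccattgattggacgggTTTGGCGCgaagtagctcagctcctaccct
Mcm5, chr8:75109334-75109389, plus strand: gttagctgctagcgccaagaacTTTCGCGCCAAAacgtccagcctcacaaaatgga
Orc1, chr4:108579405-108579453, plus strand: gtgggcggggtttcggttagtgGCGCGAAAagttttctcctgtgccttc
Pola1, chrX:93632264-93632315, minus strand: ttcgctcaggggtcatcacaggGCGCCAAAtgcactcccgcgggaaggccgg
Rfc3, chr5:151651209-151651240, minus strand: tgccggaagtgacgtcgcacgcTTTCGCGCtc
Uhrf1, chr17:56304106-56304157, plus strand: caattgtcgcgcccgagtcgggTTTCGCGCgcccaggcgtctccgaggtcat

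Mcm6 held 3 matches, and the first of them began 110 bases before the start site. In Mcm6 and Mcm5 a match on one strand overlapped a match on the other. The CCAAT box (CCAAT, either strand) was found in 21 of the 33 promoters (63.6%, against 41.1% of the table and 42.5% of tested genes) and the Sp1-type box GGGCGG in 25 (75.8%, against 38.2% and 63.4%). The CHR-type elements TTTGAA and TTTAAA, which mark promoters of late cell cycle genes, were each in 5 of 33 (15.2%). For TTTGAA the share was 20.2% of the table and 14.9% of tested genes, and for TTTAAA 14.9% and 11.2%. These are letter matches and were not tested as binding sites.

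**Figure D1:**
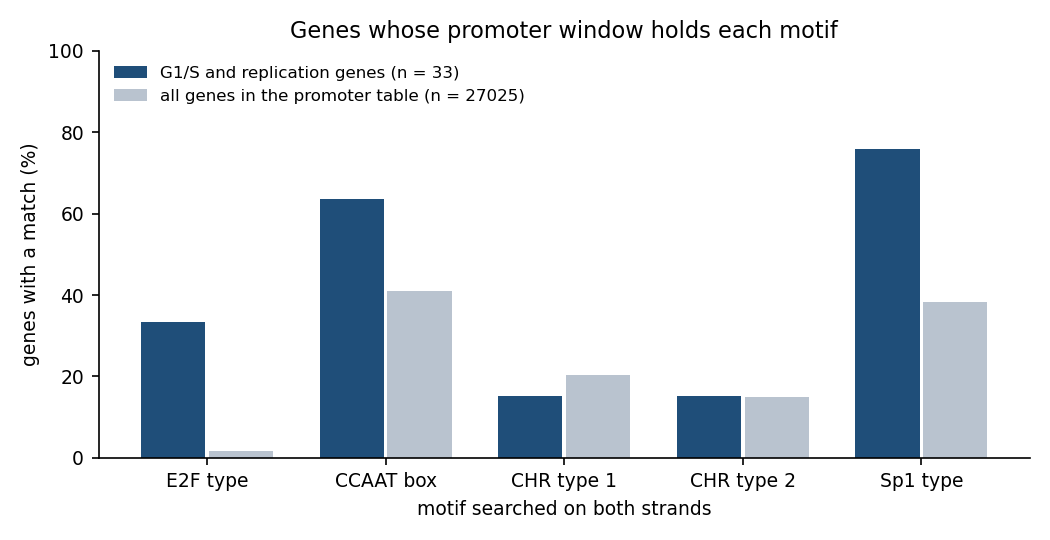
Share of genes (percent, vertical axis) whose promoter window holds each of 5 motifs, for 33 G1/S and replication genes (dark bars) and the 27025 genes of the promoter table (light bars). The E2F-type motif was in 33.3% of the G1/S and replication genes and in 1.57% of the table.

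Of the 37 tested G1/S and replication genes 0 passed an adjusted p of 0.05 between shRaly and control livers, 0 higher and 0 lower, by limma with Benjamini-Hochberg adjustment. Across the array 1.22% of genes passed that threshold (182 of 14872), 0.309% higher and 0.914% lower. The adjusted p-values of the 37 genes ran from 0.177 (Rrm2) to 0.954 (Orc6). At an unadjusted limma p under 0.05 there were 4 of the 37 (10.8%), against 16.1% of all genes tested. In 2 of the 37 (5.41%), Rrm2 and Pold1, the groups did not overlap, against 10.4% of all genes. Both were higher in shRaly livers, a direction without overlap that 3.93% of all genes had, and 0 were lower, against 6.46%. The log2 fold changes lay between -0.33 (Ccnd1) and 0.58 (Rrm2), with 22 above 0 (59.5%, against 46.2% of all genes) and 15 below. Their median was 0.09, beside -0.02 over all genes tested, and without shRaly 3 it was 0.02. The members' median was 0.14 without shRaly 2, 0.06 without control 3 and 0.13 without control 4.

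The size of change that these arrays could resolve was read from the intervals. The 95% intervals of the 37 log2 fold changes lay between -0.81 and 1.0, and in 27 of the 37 genes the whole interval lay within a change of 1.5-fold in either direction. The median standard error was 0.14 for these genes and 0.13 over all genes tested. In simulated data with the same numbers of arrays, a fold of 2 was recovered in 75.5% of the changed genes and a fold of 1.5 in 37.3%. Of the calls there 6.92% were false. The simulated noise was drawn separately for each gene, and only a small share of the genes was changed. Deviations that many genes share on an array were left out, so recovery on the real arrays may differ.

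**Figure D2:**
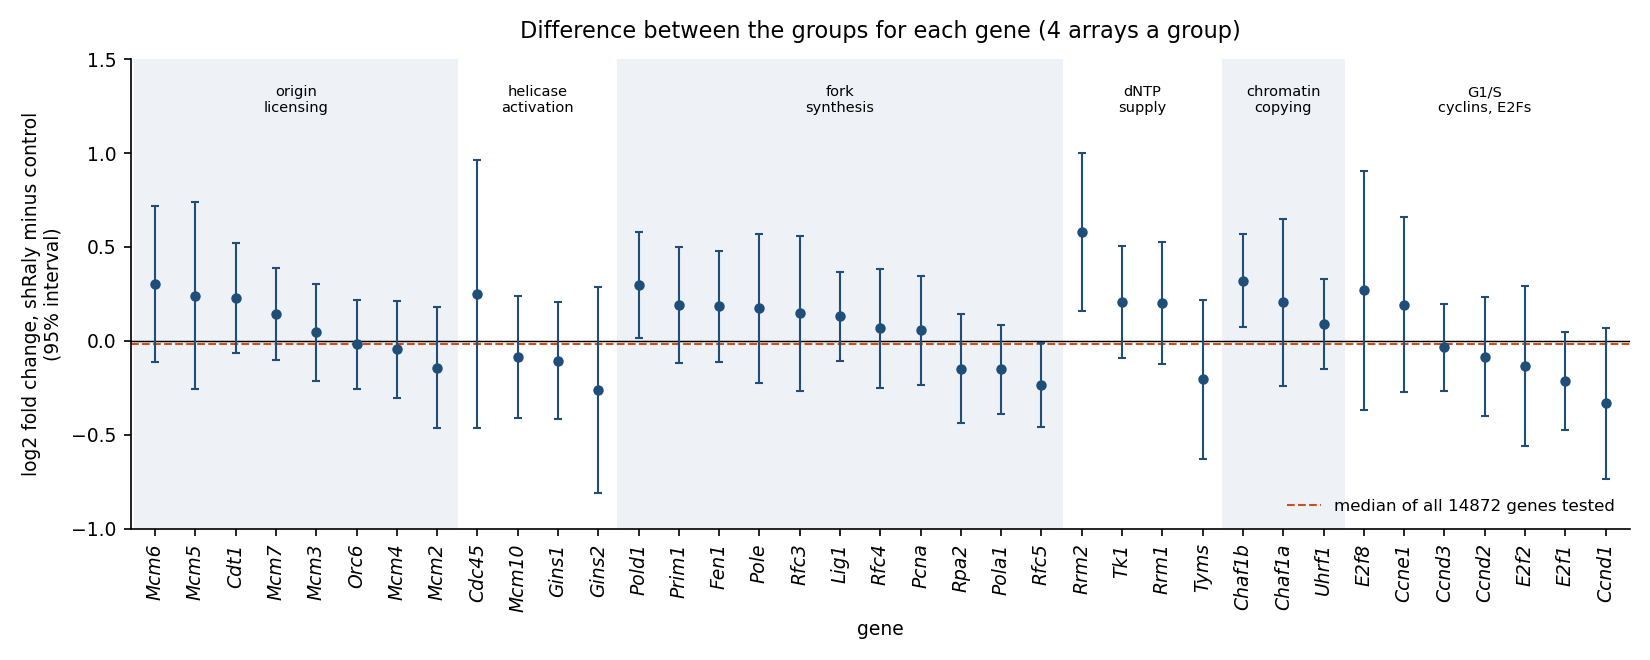
Log2 fold change (shRaly minus control, n = 4 and 4 arrays) with its 95% interval for each of the 37 tested genes, ordered by role; the dashed line is the median of all 14872 genes tested. The values scatter around 0, from -0.33 to 0.58, and no gene passed the threshold after adjustment.

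Among the licensing genes, 8 of 10 were measured and 0 passed the threshold, with a median log2 fold change of 0.09. Mcm2 to Mcm7 form the hexameric helicase, and their changes ran from -0.14 (Mcm2) to 0.30 (Mcm6), with Mcm5 at 0.24, Mcm7 at 0.14, Mcm3 at 0.05 and Mcm4 at -0.04. On the log2 scale relative to the control mean, Mcm6 (chr1:130228178-130228237, mm9) stood at 0.06, 0.12, -0.22 and 0.05 on control 1 to 4 and at 0.38, -0.15, 0.77 and 0.21 on shRaly 1 to 4. shRaly 3 was thus the highest Mcm6 array and shRaly 2 lay among the controls (log2 fold change 0.30, SE 0.18, limma adjusted p = 0.456). Mcm2 had 0.26, 0.03, -0.18 and -0.11 on the control arrays and 0.03, -0.48, 0.00 and -0.13 on the shRaly arrays. Mcm7 had -0.20, -0.01, 0.17 and 0.03 on the control arrays and 0.29, 0.03, 0.21 and 0.04 on the shRaly arrays. In both genes the groups overlapped. Mcm5 had the widest spread of the hexamer among the shRaly arrays, from -0.15 to 0.89, against -0.15 to 0.17 among the controls.

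Cdt1, the loading factor that is destroyed once S phase begins, had -0.16, 0.14, -0.10 and 0.12 on the control arrays and 0.18, 0.08, 0.54 and 0.11 on the shRaly arrays. Its shRaly 3 value was the highest of the 8, and shRaly 2 and 4 lay within the control range (log2 fold change 0.23, 95% interval -0.06 to 0.52). Orc6, a subunit of the origin recognition complex, stood at -0.02 (95% interval -0.26 to 0.22). Orc1, the largest subunit of that complex, and Cdc6, the ATPase that helps load the helicase, were not well above background on any of the 8 arrays, Cdc6 with either of its 2 probes, so that neither has a fold. Ccne2 is the remaining gene with 0 arrays well above background.

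The helicase activation genes Mcm10, Cdc45, Gins1 and Gins2 had a median log2 fold change of -0.10, with 0 of 4 past the threshold. Gins2, a GINS subunit, ran from -0.45 to 0.23 on the control arrays and from -0.62 to 0.43 on the shRaly arrays (log2 fold change -0.26, 95% interval -0.81 to 0.29). shRaly 3 was its highest array and shRaly 1 its lowest. Cdc45, the helicase's partner at the fork, was well above background on 2 control and 2 shRaly arrays and had a log2 fold change of 0.25 (SE 0.31). Gins1 and Mcm10 stood at -0.11 and -0.09.

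The 11 genes of synthesis at the fork had a median of 0.13, and 0 passed the threshold. Pold1, the catalytic subunit of polymerase delta, had 0.13, 0.10, 0.10 and -0.33 on the control arrays and 0.41, 0.19, 0.39 and 0.19 on the shRaly arrays. All shRaly values lay above all control values, with control 4 well below the rest (log2 fold change 0.30, SE 0.12, limma adjusted p = 0.285). Its probe, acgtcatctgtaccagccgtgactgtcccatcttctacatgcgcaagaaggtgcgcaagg, is printed because Pold1 is one of the 2 genes whose groups did not overlap; the file gives it 60 bases over chr7:51788221-51788589 (mm9, minus strand), an interval of 369 bases.

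Rfc5, a subunit of the complex that loads the sliding clamp, had the narrowest control values of the group. They were 0.01, -0.03, -0.00 and 0.03, against -0.26, -0.34, 0.00 and -0.34 on the shRaly arrays. shRaly 1, 2 and 4 lay below every control and shRaly 3 among them (log2 fold change -0.24, SE 0.10, limma adjusted p = 0.284). The other loader subunits Rfc3 and Rfc4 stood at 0.15 and 0.07. Pcna, the clamp itself, had 0.01, -0.22, -0.02 and 0.22 on the control arrays and -0.19, 0.04, 0.27 and 0.10 on the shRaly arrays. Its groups overlapped over nearly their whole range (log2 fold change 0.06, 95% interval -0.23 to 0.35).

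Pola1, the catalytic subunit of polymerase alpha, had 0.10, -0.22, 0.06 and 0.07 on the control arrays and -0.31, -0.15, -0.06 and -0.08 on the shRaly arrays. Of its shRaly values 1 lay below the lowest control (log2 fold change -0.15, SE 0.10). Prim1, the primase that starts each strand with polymerase alpha, had -0.06, 0.11, 0.03 and -0.08 on the control arrays and 0.10, -0.03, 0.58 and 0.10 on the shRaly arrays. Its 1 value outside the control range was that of shRaly 3 (log2 fold change 0.19, SE 0.14). For Fen1, the flap nuclease of lagging strand maturation, the control values were -0.06, 0.16, -0.14 and 0.05 and the shRaly values 0.28, -0.04, 0.46 and 0.03. Here shRaly 1 and 3 lay above the controls (log2 fold change 0.18, SE 0.13). Lig1, the ligase that seals the fragments, Pole, the catalytic subunit of polymerase epsilon, and Rpa2, which coats single-stranded DNA, stood at 0.13, 0.17 and -0.15.

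**Figure D3:**
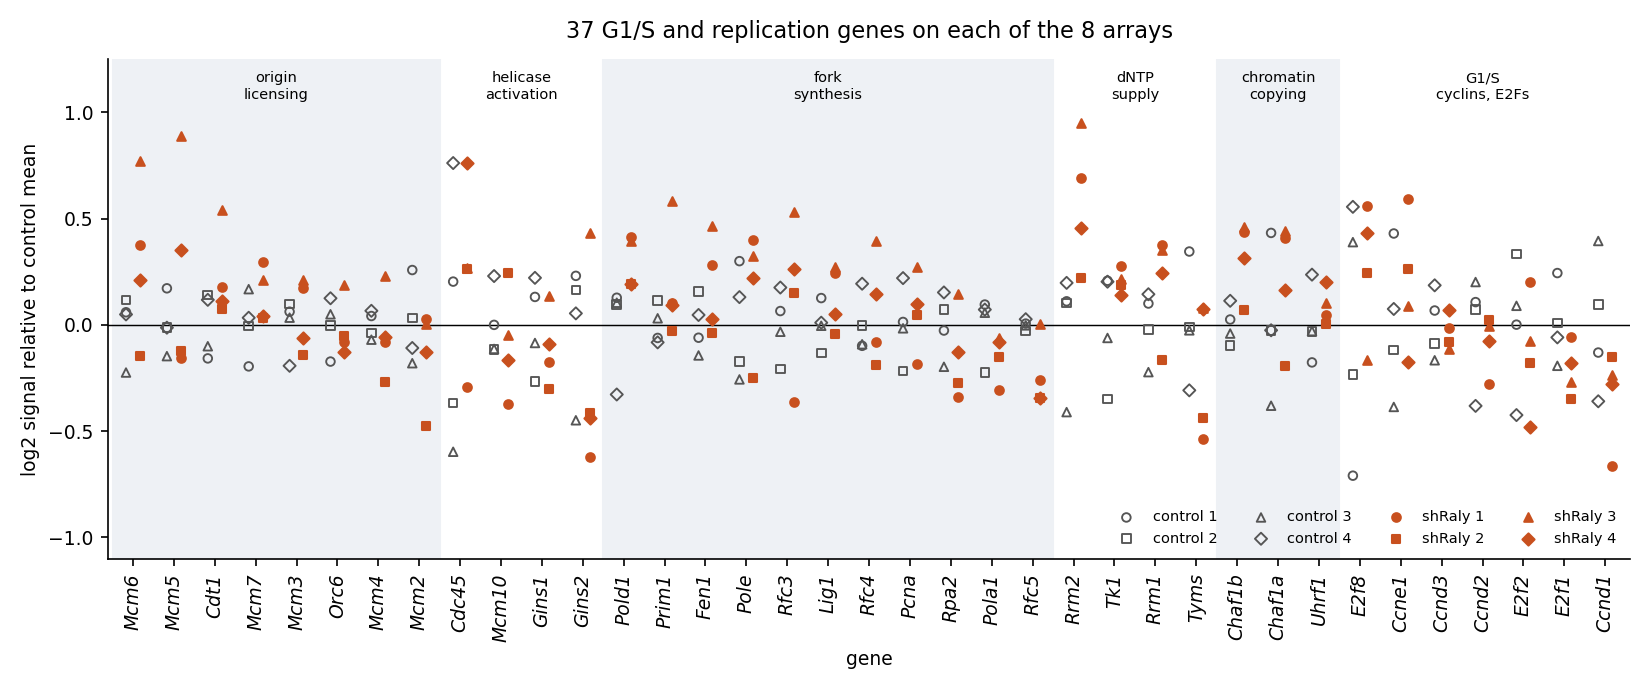
Log2 signal relative to the gene's control mean (vertical axis) on each of the 8 arrays for the 37 tested genes, ordered by role; open symbols are control arrays and filled symbols shRaly arrays, with 1 symbol shape per replicate number. The shRaly 3 triangle is the highest shRaly value in 21 genes, and the groups overlap in all genes but Rrm2 and Pold1.

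The largest difference among the 37 was in deoxynucleotide supply, in Rrm2, the S-phase subunit of ribonucleotide reductase (chr12:25398824-25398883, mm9). It stood at 0.11, 0.10, -0.41 and 0.20 on control 1 to 4 and at 0.69, 0.22, 0.95 and 0.45 on shRaly 1 to 4. All shRaly values lay above all controls, with shRaly 2 next to the highest control. The shRaly mean was 149% of control (log2 fold change 0.58, SE 0.19, 95% interval 0.16 to 1.0), with an unadjusted limma p of 0.0124 and an adjusted p of 0.177. Rrm1, the large subunit of the same enzyme, had 0.10, -0.02, -0.22 and 0.14 on the control arrays and 0.37, -0.17, 0.35 and 0.25 on the shRaly arrays. In Rrm1 shRaly 2 lay among the controls and the other shRaly arrays above them (log2 fold change 0.20, SE 0.14).

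Tk1, the thymidine kinase of S phase, had 0.21, -0.35, -0.06 and 0.20 on the control arrays and 0.27, 0.19, 0.21 and 0.14 on the shRaly arrays. The shRaly values were closer together (SD 0.06) than the controls (SD 0.26), and the log2 fold change was 0.20 (SE 0.13); another Tk1 probe had 0.28. Tyms, thymidylate synthase, stood at -0.21 (SE 0.19) and was well above background on 3 of the 4 shRaly arrays. As a group, the 4 supply genes had a median of 0.20.

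Chaf1b, a subunit of the chromatin assembly factor that deposits histones behind the fork, had 0.03, -0.10, -0.04 and 0.11 on the control arrays and 0.44, 0.07, 0.46 and 0.31 on the shRaly arrays. Again shRaly 2 lay within the control range and the other shRaly arrays above it (log2 fold change 0.32, SE 0.11, limma adjusted p = 0.200). Another Chaf1b probe past the filter had 0.30. Its partner Chaf1a stood at 0.20 (SE 0.20). Uhrf1, which brings the maintenance DNA methyltransferase to newly copied DNA, had -0.18, -0.03, -0.03 and 0.24 on the control arrays and 0.05, 0.00, 0.10 and 0.20 on the shRaly arrays, all inside the control range. Over the 7 genes with another probe past the filter, that probe had the same sign as the one used in 7 of 7. The probes of a gene were read on the same arrays from the same RNA, and those of Mcm3 and of Chaf1b overlap in position, so this is no independent measurement.

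The G1/S cyclins and E2F factors, the regulators upstream of the replication genes, gave 0 of 7 measured genes past the threshold and a median of -0.08. Ccnd1, cyclin D1, the cyclin induced when hepatocytes leave quiescence, had -0.13, 0.10, 0.39 and -0.36 on the control arrays and -0.67, -0.15, -0.24 and -0.28 on the shRaly arrays. It was lowest on shRaly 1, while the other shRaly arrays lay inside the wide control range (log2 fold change -0.33, SE 0.18, limma adjusted p = 0.399). Ccnd2 and Ccnd3 stood at -0.08 and -0.03. Ccne1, cyclin E1, had 0.43, -0.12, -0.39 and 0.07 on the control arrays and 0.59, 0.26, 0.09 and -0.18 on the shRaly arrays, with a log2 fold change of 0.19 (SE 0.21).

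E2f1, an activator of the replication genes, had 0.24, 0.01, -0.19 and -0.06 on the control arrays and -0.06, -0.35, -0.27 and -0.18 on the shRaly arrays. shRaly 2 and 3 lay below the lowest control (log2 fold change -0.21, 95% interval -0.47 to 0.05). E2f2, another activator, stood at -0.13 (SE 0.19). E2f8, a repressor of the family that takes part in hepatocyte polyploidy, stood at 0.27 (SE 0.28), with control values from -0.71 to 0.56. The 10 tested genes with an E2F-type motif had a median log2 fold change of 0.14 and the 21 tested genes with a promoter and no such match 0.18.

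The arrays differed among themselves in a way that many of the 37 genes shared. The median over the 37 genes, relative to the control mean, was 0.07, -0.01, -0.07 and 0.07 on control 1 to 4 and 0.03, -0.08, 0.21 and 0.07 on shRaly 1 to 4. The shRaly 3 array was the highest, shRaly 2 was the lowest, and the other shRaly arrays lay within the control range; the group means of these medians differed by 0.04, and by -0.01 without shRaly 3. Among the shRaly arrays, shRaly 3 was the highest in 21 of the 37 genes (56.8%, against 27.1% of all genes tested), and shRaly 2 the lowest in 19 (51.4%, against 20.9%). By role, shRaly 3 was the highest in 9 of 11 fork genes and 6 of 8 licensing genes, and in 0 of 7 cyclin and E2F genes. Raly stood at -0.95, -0.31, -0.78 and -0.67 on shRaly 1 to 4, so that shRaly 2 had the highest Raly level of the shRaly arrays while the lowest was on shRaly 1, not on shRaly 3. shRaly 2 also had the fewest spots well above background. The part of either in the order of the arrays was not tested.

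A further list of DNA replication genes had 56 of 63 measured, with 0 past the threshold in either direction, 8 at an unadjusted limma p under 0.05 (a smaller share than the 16.1% of all genes), and a median log2 fold change of 0.01. Its 3 smallest p-values were those of Pole4 (0.37, SE 0.09, limma adjusted p = 0.0992) and Pole2 (0.66, SE 0.18, 0.132), accessory subunits of polymerase epsilon, and of Asf1b (0.48, SE 0.14, 0.138), a histone chaperone of replication. In Pole4 and Pole2 all shRaly values lay above all controls, and in 1 other gene of the list, Timeless, of the fork protection complex, all lay below (log2 fold change -0.23, SE 0.09, limma adjusted p = 0.248). Over all genes 3.93% lay above without overlap and 6.46% below. The median of this list on shRaly 1 to 4 was 0.03, -0.04, 0.14 and 0.02.

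Among the regulators of the G1/S transition, 31 of 33 were measured, 0 were higher, 1 was lower and 30 did not pass, with a median of 0.09. Over all genes 0.309% were higher and 0.914% lower past the threshold. Of the 31 regulators 6 had an unadjusted limma p under 0.05, where 16.1% of all genes did, so the list as a whole is not described by its 1 call. The gene that fell was Rbl2, which encodes p130, the retinoblastoma family protein that holds E2F targets silent in quiescent cells (chr8:93647120-93647179, mm9). Its values were 0.16, -0.31, -0.09 and 0.24 on control 1 to 4 and -1.20, -0.77, -0.96 and -1.19 on shRaly 1 to 4. Every shRaly array lay well below every control, and the shRaly mean was 49.0% of control (log2 fold change -1.03, SE 0.15, limma adjusted p = 0.0217). The direction held without each array in turn, between -1.13 and -0.95, while the call was lost without control 1, 3 or 4 and without shRaly 3 or 4 (adjusted p = 0.0695, 0.0674, 0.0587, 0.0602 and 0.0734). Keeping the dim probes lost it too (0.0715), as did the replicate number, which is also the slide column, as a block (0.105). Rbl2 was measured by 1 probe. E2f5, a partner of p130, stood at 0.48 (SE 0.13, adjusted p = 0.126), and Fbxw7, the ubiquitin ligase adaptor that targets cyclin E, at -0.52 (SE 0.17, adjusted p = 0.180).

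Genes of mitosis, the later stage of the cycle, were read beside them. Of 40 listed, 35 were measured and 0 passed the threshold in the fit reported. With normexp background correction the smallest limma adjusted p of the list was under 0.05, so this count of 0 depended on the processing. Of the 35, 16 had an unadjusted limma p under 0.05, a larger share than the 16.1% of all genes. A log2 fold change above 0 was found in 33 of the 35, a larger share than the 46.2% of all genes. The median was 0.49, beside 0.09 for the 37 genes and -0.02 over all genes. These medians were 0.35, 0.08 and -0.0047 with normexp background correction. The mitosis medians were -0.02, 0.01, -0.24 and 0.23 on control 1 to 4 and 0.48, -0.05, 1.03 and 0.51 on shRaly 1 to 4. Thus shRaly 2 lay among the controls and shRaly 3 was highest, the same order of shRaly arrays as in the G1/S and replication genes. Ncaph, a condensin subunit, had 0.49 (SE 0.11, limma adjusted p = 0.0735). The mitotic kinases Plk1 and Aurka had 0.74 (SE 0.20, limma adjusted p = 0.116) and 0.83 (SE 0.26, limma adjusted p = 0.173). In Aurka the groups overlapped, with shRaly 2 at 0.11 and control 4 at 0.28. The difference between the lists was not tested, since the genes were chosen with earlier results of these arrays known.

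**Figure D4:**
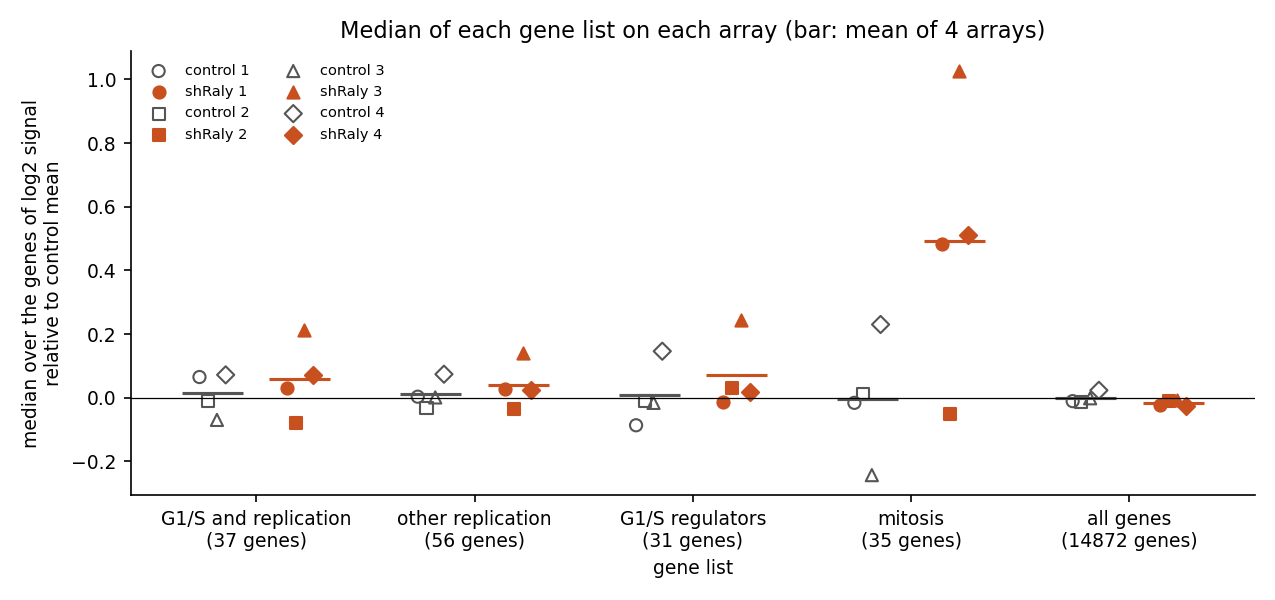
Median over the genes of a list of the log2 signal relative to the control mean (vertical axis), 1 point per array, with the mean of the 4 arrays of a group as a bar, for 5 sets of genes. The G1/S and replication genes lie between -0.08 and 0.21, the mitosis genes reach 1.03 on shRaly 3, and all genes lie near 0.

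Markers of cell types that a liver sample can hold were read on the same arrays. Of 10 lists none had a member past the threshold, where 1.22% of all genes passed, and their medians ran from -0.20 (stellate cells and fibroblasts) to 0.15 (neutrophils), with T and NK cells at 0.11 and Kupffer cells and macrophages at -0.06. Endothelial markers, at -0.18 over 10 genes, had array medians of -0.27 to -0.15 on the shRaly arrays and -0.06 to 0.07 on the controls, without overlap. Their summed level, in units of each array's 75th percentile, was 57.3 to 66.2 against 69.3 to 77.0, and 4 of the 10 had an unadjusted limma p under 0.05, where 16.1% of all genes did. So did 5 of 13 T and NK markers and 4 of 14 hepatocyte markers. Of the T and NK markers 2 lay above all controls and 2 below, where 3.93% and 6.46% of all genes did. The part of endothelial cells in the values of the G1/S and replication genes was not tested. The median of the erythroid markers was highest on shRaly 3 at 0.55, against -0.27 to 0.19 on the control arrays and -0.22 to -0.14 on the other shRaly arrays. Of 12 erythroid symbols 7 were measured, and the haemoglobin genes Hba-a1, Hbb-b1 and Hbb-b2 stood at 0.49, 0.58 and 0.70 on shRaly 3. The 7 ran from -0.64 to 0.78 on that array, with Klf1, the transcription factor of red cell precursors, alone below 0. Klf1 had 0.20, -0.51, -0.08 and 0.39 on the control arrays and -1.19, -0.42, -0.64 and -0.57 on the shRaly arrays. Its groups overlapped (limma adjusted p = 0.174). Tfrc, of the same erythroid list, went the other way, from 0.19 to 0.67 on the shRaly arrays and from -0.20 to 0.35 on the controls (limma adjusted p = 0.236). The summed level of the 7, in units of each array's 75th percentile, was 147 to 193 on the control arrays and 141 to 232 on the shRaly arrays. The part of these cells in the shRaly 3 values was not tested. In whole liver, fewer cells of a type and less RNA per cell cannot be told apart.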

How the data were processed

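The deposited array files hold the intensity of each spot as Agilent Feature Extraction 11.5.1.1 gives it, per the file headers: mean signal, local background and a processed signal, background-subtracted, detrended and not normalized between arrays. The deposited table of the series equalled the processed signal intensity for 62976 of 62976 spots on each array (relative tolerance 1e-06). The deposited flags, 0 or 1 per spot and otherwise no measurement, mark spots well above background, non-uniform or outlying.

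Here the processed signal was taken to log2, each array's 75th percentile over 59305 non-control spots was subtracted, 137 to 163 flagged spots per array were set to missing, and spots of a probe were averaged. Of 55681 probes, 27656 were named by RefSeq accession, 3401 by symbol and 321 by synonym in the GRCm38.p6 gene table (names only), 1775 kept the file's name and 22528 had none; members were found by the file's gene name; coordinates of probes are the files' (mm9), where probes fall in exons, introns or UTRs was not analysed here. The filter kept genes with a probe well above background on 4 or more of 8 arrays and 3 or more values in each group. Groups were compared with limma 3.58.1 in R 4.3.3 (lmFit, eBayes, Benjamini-Hochberg over all genes, threshold 0.05), checked on simulated data with 14849 genes. The number of arrays limits the precision.

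The members and lists were chosen with earlier results of these data known. Named with values on every array were the 14 members of smallest p and, whatever their values, Pcna, Mcm2, Mcm6, Ccnd1, Ccne1, Rrm2, Tk1, Cdt1, E2f1 and Uhrf1; the rule also held Ccne2 and Cdc6, which were not above background, and the others are given by fold change or range. Beyond them the rule named Raly and, per pathway list, genes past the threshold and the 3 of smallest p. Timeless, the haemoglobin genes, Klf1 and Tfrc were chosen after their values were seen, and no rule set which cell type lists are given in detail. Alternatives were background correction, scaling, filter, probe and name rules, a replicate block and leaving out each array.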

Additional observations from a re-analysis of the deposited data

Results flagged for a closer look

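In 5 of 134 groups of 4 arrays, 1 array lay far from the others (by Dixon's criterion at 95%, on its gap to the nearest other array over the whole range), and chance gives about 1 in 20. Among the G1/S and replication genes there were 3 of 74. Rrm2 was low on control 3, at -0.41 on the log2 scale relative to the control mean, with the next control at 0.10. Pold1 was low on control 4, at -0.33, with the next at 0.10. Pola1 was low on control 2, at -0.22, with the next at 0.06. Asf1b, of the wider replication list, was high on control 1, at 0.17, with the next at -0.04. The median of the erythroid markers was high on shRaly 3, at 0.55, with the next shRaly array at -0.14.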

How the results depend on the processing

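None of the 37 G1/S and replication genes passed the threshold under any of the 13 alternatives or 8 leave-outs, with a smallest limma adjusted p of 0.0886, and the numbers higher and lower past the threshold were 0 and 0 throughout. The median log2 fold change of these genes, 0.09, ran from 0.06 to 0.12 over the 13 alternatives and from 0.017 (without shRaly 3) to 0.14 over the leave-outs, and the difference between the group means of the array medians from 0.02 to 0.06 and from -0.01 to 0.09. The count over all genes, 182, was 42 with no filter on dim probes, 46 with a replicate block and 17 to 282 over the leave-outs: 55, 17, 20 and 49 without control 1 to 4 and 119, 282, 47 and 20 without shRaly 1 to 4. Samples of both groups share replicate numbers, which are also the columns of the slide, so the block is a shared slide position too; the correlations of same-numbered samples' deviations were 0.085, -0.021, -0.075 and 0.137 for numbers 1 to 4, and by this check the numbers were not taken to pair the samples; number 1 alone had its control array correlate best with its own partner. With the replicate block 0 of the 37 genes passed, and Rbl2 had a limma adjusted p of 0.105.

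Of 775 values of the 37 genes under other settings, 15 changed sign, in 8 genes; Tyms, at -0.21, was the one among them more than 0.1 from 0 in the fit reported. Pcna was -0.0087 and Tyms 0.076 with normexp background correction. Orc6 was 0.0060 with quantile scaling and 0.00098 with scaling over detected probes. Over the leave-outs the log2 fold change of Pcna ran from -0.016 to 0.14, Mcm3 from -0.018 to 0.11, Mcm4 from -0.14 to 0.030, Mcm10 from -0.20 to 0.0096, Ccnd3 from -0.090 to 0.027, Rfc4 from -0.041 to 0.15 and Orc6 from -0.087 to 0.023. The causes were not tested. Signals not above background limit Orc1, Cdc6 and Ccne2 on all arrays, and Cdc45 on 4 of 8.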
